A study of Mus musculus with 6 samples.

Results

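The 41 genes described here are interferon-stimulated genes, followed in differentiating mouse embryonic stem cells exposed to an inhibitor of histone deacetylases. They form a list of textbook members that was proposed with their differences between treatments on these arrays already known, so those differences are a description and were not used as evidence for the list. A probe counted as a member's when its RefSeq identifier maps to the member's symbol. By this rule 38 of the 41 genes had 52 probes, and 37 passed the filter on dim probes (well above background on 3 or more of the 6), out of 14529 genes tested in all. Dtx3l, Mx1 and Mx2 had no named probe, and Ifi44 was not above background on any array; these 4 have no values here.

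The samples were 3 cultures treated for 24 h with trichostatin A (TSA), which blocks class I and II histone deacetylases, and 3 treated for 24 h with its solvent DMSO. All 6 were day 3 cells of the 129/Ola strain, grown on gelatin in serum-free N2B27 medium, in which embryonic stem cells tend toward neural fates. The labels give no dose of TSA, and they describe 3 independent experiments. Each experiment was hybridised on its own slide of single-colour Agilent arrays, with TSA always at array position 4 and DMSO at 3. The effects of treatment and position therefore cannot be told apart, and neither can those of experiment and slide. A level below is the log2 processed signal of a probe minus the 75th percentile of its array. A difference is TSA minus DMSO on that log2 scale, with 3 arrays per group. The ± is the moderated standard error of the fit with treatment as the only term. Adjusted p-values with the slide as a block come from a second fit that has its own standard error. These are bulk samples, in which more cells of a type and more RNA per cell cannot be told apart.

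Interferons are secreted proteins that cells release after sensing foreign or misplaced nucleic acid. Type I interferons bind the receptor formed by Ifnar1 and Ifnar2, whose kinases Jak1 and Tyk2 start a signal that reaches the nucleus as a complex containing Stat2 and Irf9. This complex binds a promoter element called the ISRE, which switches on the interferon-stimulated genes. Interferon gamma acts through another element, GAS. Pluripotent stem cells are known for a weak interferon response that strengthens as they differentiate.

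Promoters are shown because the ISRE is the sequence that defines the regulation of this gene class. RefSeq windows of 250 bases before to 50 after a start (build GRCm38.p6) were matched by symbol for 31 of the 41 members, and both strands were searched. The ISRE core, written GAAA, any 2 bases and GAAA again, was found in 16 of the 31 (51.6%), against 3.99% of the 27025 genes with a window. The GAS motif, TTCNNNGAA, was found in 10 of the 31 (32.3%), against 9.55% of all genes. An ISRE and a GAS match overlapped in the windows of Bst2 and Ifitm3. A match is a description of letters and was not tested for binding. Below are 4 windows with ISRE matches and that of Oasl2, a strongly differing member with neither motif, read 5′ to 3′ along the gene with motif matches in capitals. They lie at chr4:156200769-156201068 on the minus strand for Isg15, which has 3 overlapping ISRE cores, chr5:120907476-120907775 (minus) for Oas1a, which has 2 ISRE cores and a GAS match upstream of them, chr11:48871371-48871670 (minus) for Irgm1, chr19:34640639-34640938 (plus) for Ifit1 and chr5:114896684-114896983 (plus) for Oasl2.
Isg15: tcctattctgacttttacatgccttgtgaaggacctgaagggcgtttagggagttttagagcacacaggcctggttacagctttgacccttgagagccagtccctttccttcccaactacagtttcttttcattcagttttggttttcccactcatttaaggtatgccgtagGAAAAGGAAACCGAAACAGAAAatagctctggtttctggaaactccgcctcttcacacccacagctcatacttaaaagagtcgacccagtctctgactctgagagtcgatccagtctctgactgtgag
Oas1a: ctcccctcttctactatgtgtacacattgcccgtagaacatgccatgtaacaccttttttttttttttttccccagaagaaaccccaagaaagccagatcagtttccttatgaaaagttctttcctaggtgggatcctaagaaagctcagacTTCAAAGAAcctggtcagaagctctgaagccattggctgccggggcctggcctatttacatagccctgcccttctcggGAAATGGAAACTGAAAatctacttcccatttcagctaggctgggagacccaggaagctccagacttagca
Irgm1: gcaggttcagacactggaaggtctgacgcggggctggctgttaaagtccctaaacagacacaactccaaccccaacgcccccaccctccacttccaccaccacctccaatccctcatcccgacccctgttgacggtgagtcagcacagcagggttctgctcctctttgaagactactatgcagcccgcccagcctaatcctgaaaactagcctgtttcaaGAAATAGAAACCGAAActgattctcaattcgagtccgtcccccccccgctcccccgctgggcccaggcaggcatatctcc
Ifit1: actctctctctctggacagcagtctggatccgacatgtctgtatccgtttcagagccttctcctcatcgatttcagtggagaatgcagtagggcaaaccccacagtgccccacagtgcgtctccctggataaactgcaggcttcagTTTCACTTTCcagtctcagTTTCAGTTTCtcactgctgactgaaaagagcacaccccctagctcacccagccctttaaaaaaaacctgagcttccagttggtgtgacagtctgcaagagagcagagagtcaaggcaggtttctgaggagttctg
Oasl2: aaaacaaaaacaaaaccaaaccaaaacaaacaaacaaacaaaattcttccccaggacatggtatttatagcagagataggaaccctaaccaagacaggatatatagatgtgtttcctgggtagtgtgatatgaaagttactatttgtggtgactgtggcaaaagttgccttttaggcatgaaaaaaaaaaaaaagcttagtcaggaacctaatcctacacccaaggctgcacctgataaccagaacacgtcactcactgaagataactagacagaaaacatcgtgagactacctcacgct

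In the Isg15, Oas1a and Irgm1 windows the 2 or 3 cores share bases and read as a run of GAAA repeats, while the 2 cores of Ifit1 are separate and lie on the opposite strand. The 16 tested members with an ISRE match differed by 0.09 to 3.16, with a median of 1.22. The 13 tested members with a window and no match differed by -0.15 to 2.5, with a median of 0.69. Tested members without a window stand in neither group: Usp18, Rtp4, Ifi27, Zbp1, Oas2, Parp14, Dhx58 and Parp9. Their differences ran from 0.78 (Parp9) to 3.01 (Usp18). The differences were known when the list was proposed, so nothing is read from these medians.

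The arrays differed in brightness. The 75th percentile was 670, 311 and 885 intensity units on TSA arrays 1, 2 and 3, against 632, 654 and 926 on DMSO arrays, and 61.1% to 72.3% of the 43379 spots were well above background. TSA 2 was the dimmest array and correlated with the other TSA arrays at 0.931 and 0.939. Of the tested members 30 were above background on all 6 arrays; 6 of the other 7 were not on DMSO 1, so their level there is only a bound. All 10 markers of stem cells and epiblast and 7 of 8 neural progenitor markers were above background on all arrays, in cells labelled as differentiating stem cells.

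Interferon-stimulated genes had higher mean levels in TSA in nearly all cases: 35 of the 37 tested members, against 58.1% of all tested genes. The median difference was 1.18, against 0.08 over all tested genes, and 1.05 without TSA 2. On slides 1, 2 and 3 the member median was 0.91, 1.64 and 0.95, and over all tested genes it was -0.03, 0.31 and 0.03. Individually 29 members were higher in TSA on all 3 slides, against 32.6% of all genes, and 0 were lower on all 3, against 21.4%. Every TSA array lay above every DMSO array for 10 members (16.4% of all genes did so) and below for 0 (8.28% of all genes). With treatment as the only term 1 member, Oasl1, rose and 0 fell (limma, adjusted p under 0.05), against 1.36% of all genes that rose and 0.0551% that fell. At an unadjusted p under 0.05 were 12 members, against 14.9% of all genes. With the slide as a block, which takes out the level of each slide and its experiment, 9 members rose and 0 fell, against 3.19% and 0.145% of all genes. The members were proposed with this contrast known, so nothing is read from these shares. The number of all genes that rose moved with the array left out. The unblocked count of members was 2 (Oasl1 and Rsad2) without TSA replicate 2. It was 0 without TSA replicate 1 or 3 or DMSO replicate 1, 2 or 3. With normexp background correction it was 1 again, but the gene was Trim25, and the median difference was 0.62. The blocked count was 13 with median centring, where more of all genes rose too, and 3 in the authors' deposited table (Ifih1, Irf1 and Irgm1). It was 0 with quantile normalization or normexp, where no gene of the array passed. With slide 1, 2 or 3 left out it was 18, 19 and 16, and each of these held the 9 genes. These fits have 1 residual degree of freedom and reuse the same arrays. In each of them more of all genes rose than in the full blocked fit. The share of all genes that rose in the authors' table with the block is not given. Nothing is read about the members from their counts under these alternatives. Sizes moved with the slide 1 arrays: without DMSO 1 the difference was 1.34 for Oasl2, 1.17 for Irgm1, 1.14 for Ifi27, 1.05 for Rtp4, 1.04 for Ifih1 and 1.03 for Parp14. For Gbp3 it turned to -0.09 and for Gbp2 it was 0.12.

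**Figure D1:**
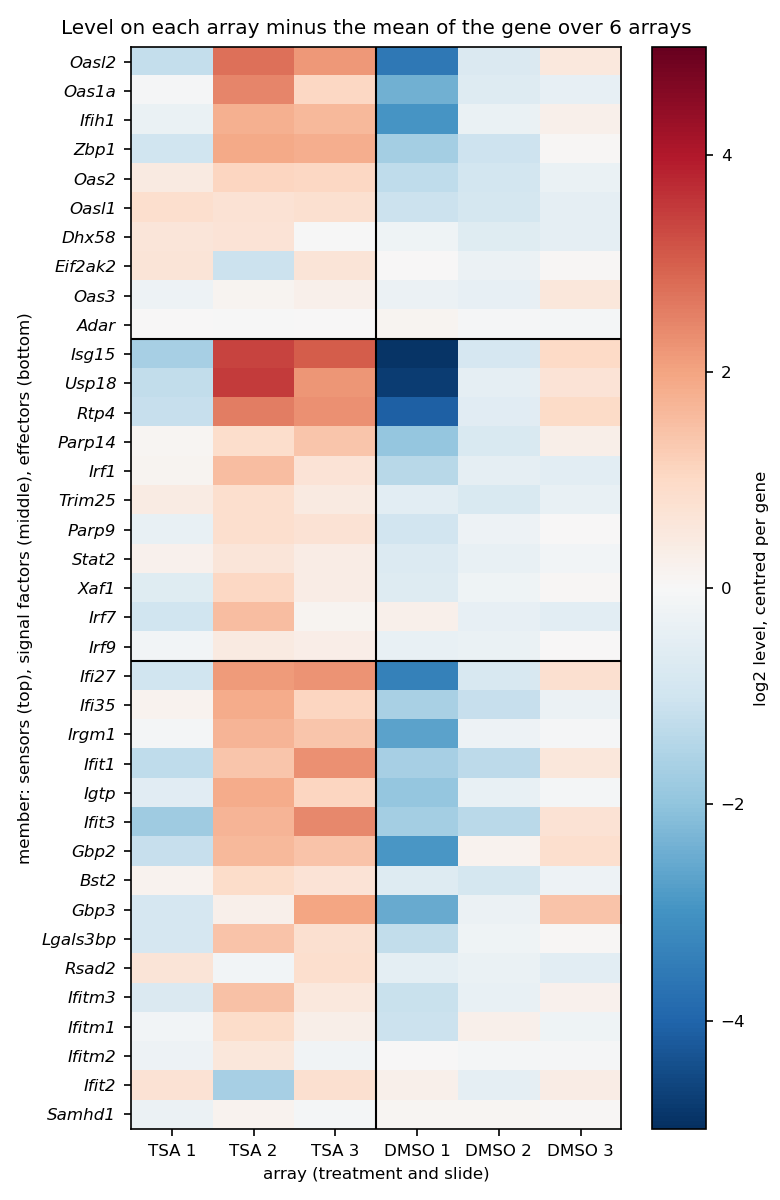
Level of each of the 37 tested members on the 6 arrays as log2 relative to the 75th percentile of the array, minus the gene's mean over the arrays (colour scale), with TSA arrays left and DMSO arrays right and members grouped by role. DMSO 1 is the lowest array for most members, with Isg15, Usp18 and Rtp4 furthest below their means.

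**Figure D2:**
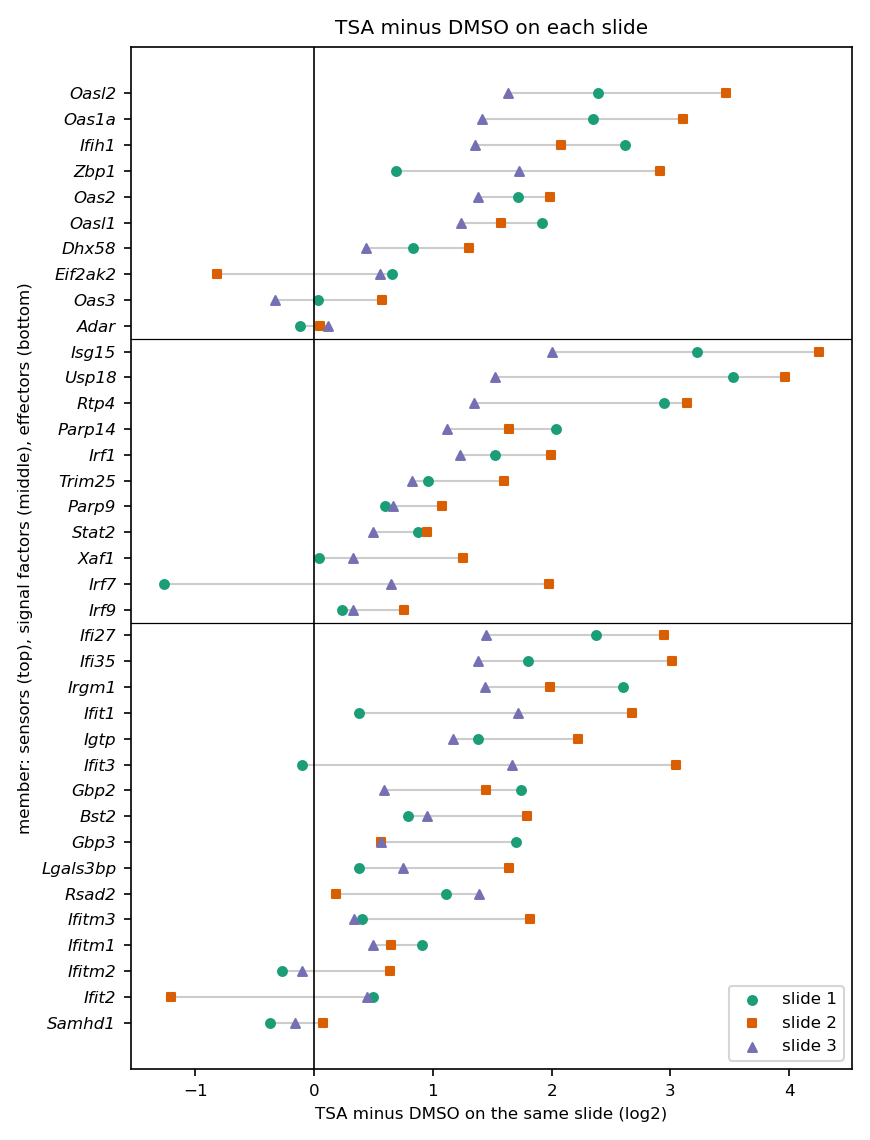
TSA minus DMSO on slide 1 (circles), 2 (squares) and 3 (triangles) for each tested member, on the log2 scale, with a grey line over the range of the 3 values. Isg15 gave 3.23, 4.25 and 2.0, while Adar stayed between -0.12 and 0.11.

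Sensors of nucleic acid come first in the pathway. All 10 were tested, all 10 had a higher mean in TSA (58.1% of all genes did), and the median difference was 1.64. Without a block Oasl1 rose and 0 fell, against 1.36% and 0.0551% of all genes. With the slide as a block 4 rose, against 3.19% of all genes: Oasl1, Oas2, Oasl2 and Ifih1. Oasl1 belongs to the oligoadenylate synthetase family and in mice limits translation of Irf7. Its level was -4.66, -4.79 and -4.70 on TSA arrays 1, 2 and 3, against -6.57, -6.37 and -5.93 on DMSO arrays 1, 2 and 3. The TSA arrays lay close together and above all DMSO arrays, of which only DMSO 3 was well above background. Oasl1 rose by 1.58 ± 0.23 (2.98-fold, adjusted p = 0.0422). It lost its call with quantile normalization (1.37, adjusted p = 0.0641), median centring (1.48, adjusted p = 0.0597), the authors' deposited table (0.69, adjusted p = 0.151) and normexp (0.12, adjusted p = 0.537).

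Oas2 makes the messenger 2′,5′-oligoadenylate, which activates the nuclease RNase L. It had levels of -3.71, -3.11 and -3.13 on TSA arrays, against -5.42, -5.10 and -4.51 on DMSO arrays. The groups did not overlap, and all 6 arrays were above background. The difference was 1.70 ± 0.31 (3.24-fold, adjusted p = 0.0725), and it passed with the block (adjusted p = 0.0380). With normexp the difference was 0.31. Oas1a, another synthetase, had levels of -0.66, 1.84 and 0.41 on TSA arrays, against -3.0, -1.26 and -1.01 on DMSO arrays. Its groups did not overlap either, and the difference was 2.29 ± 0.76 (4.89-fold, adjusted p = 0.283, and 0.0518 with the block). The mouse has several close copies of Oas1a, so this probe may also bind relatives. Oas3, a synthetase too, had 2 tested probes that disagreed. The brighter probe had -4.77, -4.35 and -4.26 on TSA arrays, against -4.80, -4.92 and -3.93 on DMSO arrays, with a difference of 0.09 ± 0.32. The other had -5.01, -2.4 and -4.05 on TSA arrays, against -6.81, -5.43 and -4.86 on DMSO arrays, the first of which was not above background. Its difference was 1.88 ± 0.76 (adjusted p = 0.400). Oas3 was the 1 member of 9 with several tested probes whose probes differed by over 1, and no direction is given for it.

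Oasl2, of the same family, varied far more between slides. It had levels of -2.07, 1.88 and 1.28 on TSA arrays, against -4.47, -1.60 and -0.35 on DMSO arrays. The groups overlapped because TSA 1 lay below DMSO 2 and DMSO 3, though TSA was above DMSO on each slide. The difference was 2.5 ± 1.35 (5.66-fold, adjusted p = 0.552), and it passed with the block (adjusted p = 0.0498). Ifih1 encodes MDA5, which binds long double-stranded RNA in the cytoplasm. It had -3.02, -0.91 and -1.06 on TSA arrays, against -5.63, -2.99 and -2.41 on DMSO arrays, the first of which was not above background. Here too only TSA 1 reached into the DMSO range, and the difference was 2.02 ± 0.95 (4.05-fold, adjusted p = 0.491, and 0.0453 with the block). Its second probe gave 1.71 ± 0.66 and also passed with the block (adjusted p = 0.0448). That probe was not above background on TSA 1, DMSO 1 and DMSO 2.

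Among the remaining sensors, Zbp1, which binds Z-form nucleic acid, differed by 1.78 ± 0.86, and Dhx58, the regulatory helicase LGP2, by 0.86 ± 0.27 with groups that did not overlap. Neither passed with the block (adjusted p = 0.121 and 0.145). The sensor kinase gene Eif2ak2 (PKR) differed by 0.13 ± 0.49 and was lower in TSA on slide 2. Adar, whose product edits adenosine in double-stranded RNA and dampens sensing by MDA5, had 0.81, 0.80 and 0.84 on TSA arrays, against 0.93, 0.76 and 0.72 on DMSO arrays. All 6 values were close together and above the 75th percentile of their arrays. The difference was 0.01 ± 0.18 (adjusted p = 0.978), and 0.46 ± 0.35 by its second probe.

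The signal factors carry or tune the response. Of 12 listed, 11 were tested, all 11 had a higher mean in TSA (58.1% of all genes did), and the median difference was 1.13. None rose or fell without a block, where 4 had an unadjusted p under 0.05, against 14.9% of all genes. With the block 3 rose, against 3.19% of all genes: Irf1, Isg15 and Parp14. Of the complex that binds the ISRE, Stat2 had 0.45, 0.85 and 0.63 on TSA arrays, against -0.42, -0.10 and 0.13 on DMSO arrays. The groups did not overlap and the difference was small, 0.77 ± 0.23 (1.71-fold, adjusted p = 0.235, and 0.123 with the block). Irf9, its DNA-binding partner, differed by 0.44 ± 0.24 (adjusted p = 0.555). Irf7, the factor that amplifies interferon production, had levels of -6.43, -3.89 and -5.30 on TSA arrays, against -5.17, -5.86 and -5.95 on DMSO arrays. It was at or near background on most arrays, its groups overlapped, and its sign differed between slides (0.45 ± 0.63).

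Irf1, a factor that interferon gamma induces through GAS, had 3.63, 5.01 and 4.17 on TSA arrays, against 2.10, 3.02 and 2.95 on DMSO arrays. All 6 values lay far above background and the groups did not overlap. The difference was 1.58 ± 0.43 (2.99-fold, adjusted p = 0.179), and it passed with the block (adjusted p = 0.0447). The second probe of Irf1 gave 1.58 ± 0.52 as well. Trim25, a ubiquitin ligase that activates the sensor RIG-I, had 2.93, 3.33 and 2.94 on TSA arrays, against 1.97, 1.73 and 2.12 on DMSO arrays. Its groups did not overlap, and the difference was 1.13 ± 0.22 (2.18-fold, adjusted p = 0.0844, and 0.0827 with the block). The second probe of Trim25 gave 1.27 ± 0.28 (adjusted p = 0.116, and 0.0546 with the block).

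Isg15, a ubiquitin-like protein that is joined to other proteins, had the largest difference of the members over all 6 arrays, and that size rested on single arrays. Its level was -2.24, 2.82 and 2.43 on TSA arrays, against -5.47, -1.43 and 0.43 on DMSO arrays. DMSO 1 was not above background, and TSA 1 lay below both DMSO 2 and DMSO 3. The difference was 3.16 ± 1.86 (8.95-fold, adjusted p = 0.584), and it passed with the block (standard error 0.44, adjusted p = 0.0448). It was 1.51 without DMSO 1, below Ifi35 (1.77) and Oas1a (1.67) on the same arrays, and 4.78 without TSA 1. Usp18, which removes Isg15 from proteins and blocks the receptor Ifnar2, had -2.93, 1.82 and 0.52 on TSA arrays, against -6.46, -2.15 and -1.0 on DMSO arrays, the first of which was not above background. It differed by 3.01 ± 1.70 (adjusted p = 0.569, and 0.0597 with the block), by 1.38 without DMSO 1 and by 4.37 without TSA 1. Rtp4, a chaperone of membrane receptors that inhibits viral replication, had -1.74, 1.98 and 1.70 on TSA arrays, against -4.68, -1.16 and 0.36 on DMSO arrays, a difference of 2.48 ± 1.49 (adjusted p = 0.593, and 0.0550 with the block). In both genes TSA 1 lay below DMSO 2 and DMSO 3, so the groups overlapped. Usp18 and Rtp4 are given in full after their values were seen.

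Parp14, a mono-ADP-ribosyltransferase, had -0.89, -0.10 and 0.40 on TSA arrays, against -2.93, -1.74 and -0.72 on DMSO arrays. DMSO 3 lay above TSA 1, so the groups overlapped, and the difference was 1.60 ± 0.60 (3.03-fold, adjusted p = 0.359, and 0.0495 with the block). Its other 2 probes gave 2.15 ± 0.74 and 1.42 ± 0.52. The first of them was not above background on DMSO 1, and the second was not on DMSO 1 and DMSO 2. Parp9, the partner of the ubiquitin ligase Dtx3l, differed by 0.78 ± 0.41 (adjusted p = 0.542, and 0.124 with the block), and Xaf1, a pro-apoptotic protein, by 0.54 ± 0.44 (adjusted p = 0.665).

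The effectors act on viruses and other intruders. Of 19 listed, 17 had a probe and 16 were tested. A higher mean in TSA was found for 14 (58.1% of all genes had one), and the median difference was 1.06. None rose or fell without a block, where 4 had an unadjusted p under 0.05, against 14.9% of all genes. With the block 2 rose, against 3.19% of all genes: Irgm1 and Ifi27. Irgm1, an immunity-related GTPase of vesicle membranes, had 0.31, 2.11 and 1.79 on TSA arrays, against -2.29, 0.13 and 0.35 on DMSO arrays. TSA 1 lay just below DMSO 3 and the difference was 2.01 ± 0.80 (4.02-fold, adjusted p = 0.394, and 0.0432 with the block). Its second probe gave 1.94 ± 0.79. Ifi27, a small membrane protein, had -1.65, 1.48 and 1.57 on TSA arrays, against -4.02, -1.47 and 0.13 on DMSO arrays. It was low on slide 1 in both treatments, the groups overlapped, and the difference was 2.26 ± 1.26 (4.78-fold, adjusted p = 0.564, and 0.0461 with the block).

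Bst2, or tetherin, holds budding virus at the cell surface. It had 4.05, 4.79 and 4.58 on TSA arrays, against 3.26, 3.00 and 3.63 on DMSO arrays. The groups did not overlap, and the difference was 1.18 ± 0.28 (2.26-fold, adjusted p = 0.139, and 0.0977 with the block). The Ifitm proteins block the entry of viruses, and their genes are known to be active in stem cells without interferon. Ifitm2 had 3.06, 3.88 and 3.14 on TSA arrays, against 3.33, 3.24 and 3.24 on DMSO arrays, and differed by 0.09 ± 0.27 (adjusted p = 0.902). Only TSA 2 lay above all DMSO arrays, and the sign of the difference turned without that array (-0.17) and with median centring (-0.0025). Ifitm3 had 2.21, 4.38 and 3.47 on TSA arrays, against 1.81, 2.57 and 3.13 on DMSO arrays, with a difference of 0.85 ± 0.60 (adjusted p = 0.630). TSA 1 lay within its DMSO range. Ifitm1 differed by 0.69 ± 0.42 (adjusted p = 0.596).

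The Ifit proteins bind foreign RNA, and 3 of their genes were tested. Ifit1 had -5.49, -2.84 and -1.92 on TSA arrays, against -5.87, -5.51 and -3.64 on DMSO arrays, with a difference of 1.59 ± 1.01 (adjusted p = 0.605). Ifit3 had -6.52, -3.04 and -2.33 on TSA arrays, against -6.42, -6.08 and -3.99 on DMSO arrays, with a difference of 1.54 ± 1.18 (adjusted p = 0.653). On slide 1 both were near background in both treatments, and the differences there were 0.38 and -0.10. Ifit2 had -2.06, -4.47 and -1.98 on TSA arrays, against -2.55, -3.26 and -2.43 on DMSO arrays, lowest on the slide where the TSA levels of Isg15 and Usp18 were highest (-0.09 ± 0.69, adjusted p = 0.965). Its second probe gave 0.08 ± 0.52, so no direction is given for Ifit2. Ifit3 has a near-identical copy in the mouse, so its probe may bind both.

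Of the GTPases that attack the vacuoles of parasites and bacteria, Igtp differed by 1.59 ± 0.73, Gbp2 by 1.26 ± 1.15 and Gbp3 by 0.94 ± 1.11, and none passed with the block (adjusted p = 0.0592, 0.0964 and 0.183). Ifi35 differed by 2.07 ± 0.52 with groups that did not overlap (adjusted p = 0.149, and 0.0614 with the block). Rsad2, or viperin, which makes a chain-terminating nucleotide, differed by 0.89 ± 0.29 and its groups did not overlap (adjusted p = 0.277). The secreted glycoprotein gene Lgals3bp differed by 0.92 ± 0.63 (adjusted p = 0.627). Samhd1, which degrades the nucleotides that viruses need to copy DNA, differed by -0.15 ± 0.20 (adjusted p = 0.776) in a gene with all levels between 0.65 and 1.09.

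Every slide held both treatments, but the members were proposed with their values per slide known, so their spread between the 3 slides is a description too. On slide 1 the level was lowest in both treatments for 25 of 37 members (67.6%), against 16.4% of all tested genes; slide 1 was singled out after the values were seen. The summed levels of the macrophage, fibroblast and endothelial markers and of the receptor and kinase, upstream sensor, inhibitor and other interferon-stimulated gene lists were lowest on slide 1 in both treatments too. Those of the ligand list and of the stem cell, neural and lymphocyte markers were not. The sums include genes that were not above background, so they depend in part on the background of each array. Some margins were small: the macrophage sum was -43.2 on TSA 1 and -42.9 on TSA 3. The part of these lists in the members' values was not tested. The range of the slide means (the average of the TSA and DMSO array) had a median of 1.18 in members, against 0.56 over all tested genes, and exceeded 2 in 13 members (35.1%), against 2.11% of all genes. It was 5.29 for Isg15, 4.53 for Usp18, 4.24 for Rtp4, 3.73 for Oasl2, 3.69 for Ifi27, 3.39 for Gbp3, 3.31 for Ifit3 and 3.18 for Gbp2. In these 8 genes DMSO 3 lay above TSA 1. The slide 1 means of Isg15 and Usp18 include a DMSO 1 value that was not above background, and those of Ifit3 rest on TSA 1, DMSO 1 and DMSO 2 values that were not, so these 3 ranges are not exact. At the other end were Trim25 (0.08), Adar (0.09), Samhd1 (0.22), Oasl1 (0.30, with DMSO 1 and DMSO 2 not above background), Stat2 (0.37), Ifitm2 (0.37) and Rsad2 (0.37). The second probes of Trim25 and Adar had wider ranges, 0.63 and 0.73.

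By the limma F test of the slide term, with treatment in the model, 0 members and 0% of all tested genes passed. The lowest adjusted p was 0.169, shared by Isg15 (unadjusted p = 3.77e-04), Gbp2 (3.91e-04), Ifi27 (5.59e-04), Rtp4 (6.43e-04), Gbp3 (6.50e-04) and Oasl2 (8.13e-04). At an unadjusted p under 0.05 were 21 of the 37 members (56.8%), against 17.3% of all tested genes. The adjusted count of 0 depended on the set of arrays: without TSA replicate 1, 2 or 3 the members past the adjusted threshold were 14, 4 and 14, and without DMSO replicate 1, 2 or 3 they were 16, 30 and 15, in fits that keep 1 residual degree of freedom. The share of all tested genes that passed in these fits was not counted, so nothing is read about the members from these counts. Median centring called 1 member.

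**Figure D3:**
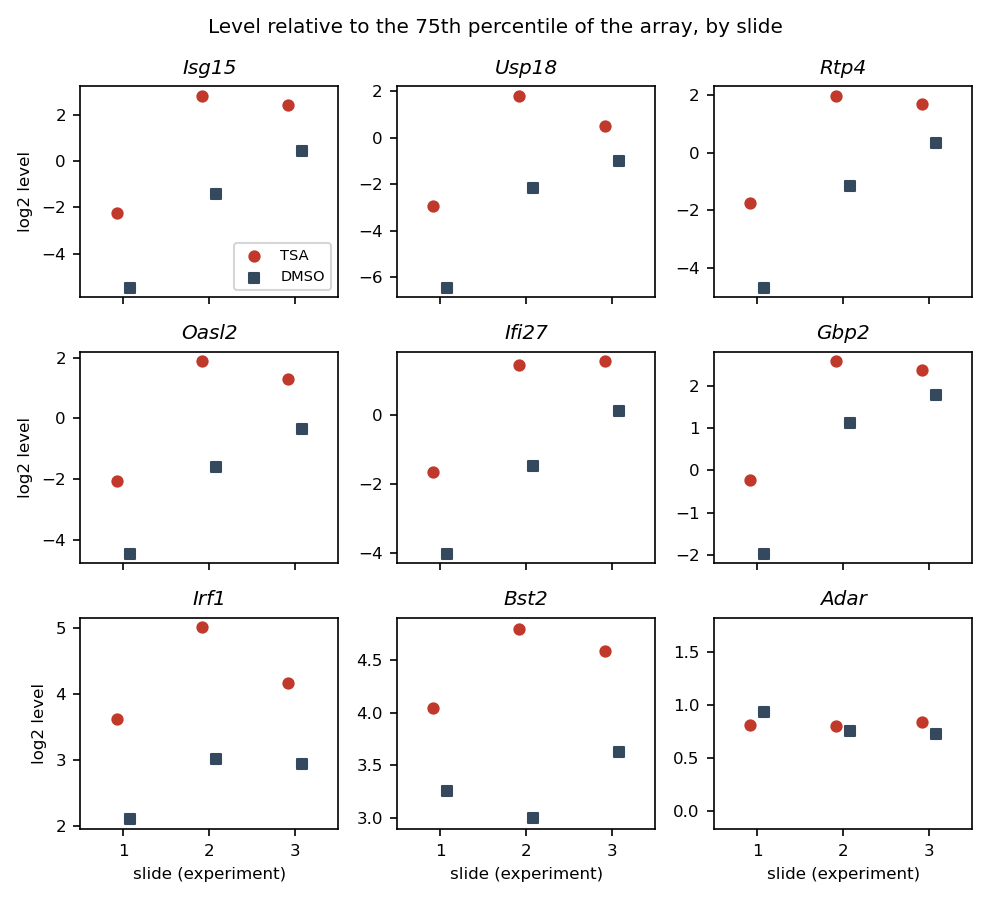
Log2 level relative to the 75th percentile of the array on slides 1, 2 and 3 for TSA (circles) and DMSO (squares), for 9 members with vertical scales of their own. Isg15 was at -2.24 and -5.47 in TSA and DMSO on slide 1, both below its DMSO level of 0.43 on slide 3, while Bst2 kept its TSA arrays above all DMSO arrays and Adar was level.

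The range of slide means and the TSA minus DMSO difference were set side by side. Their Pearson correlation was 0.74 across the 37 genes, against 0.05 over all tested genes. Their Spearman correlation was 0.70, against 0.07. The values for the 37 genes describe the list only, since both quantities come from the same 6 arrays. The differences were known when the list was proposed, and 6 members had a DMSO 1 value not above background. Oasl1, Oas2, Trim25 and Bst2 had differences of 1.13 to 1.70 with slide ranges of 0.08 to 0.75.

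**Figure D4:**
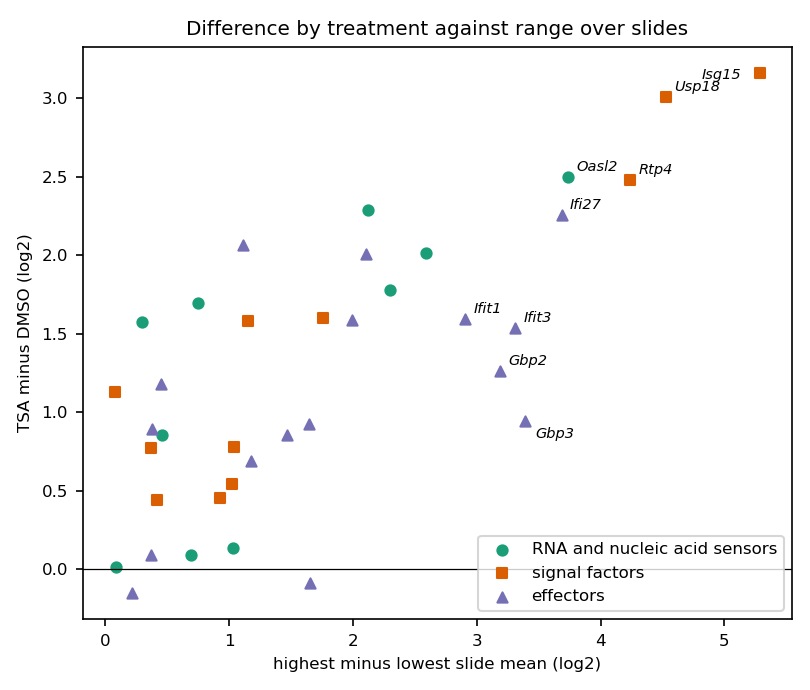
TSA minus DMSO (vertical, log2) against the range of the 3 slide means (horizontal, log2) for 37 tested members, with a symbol for each role. Isg15, Usp18, Rtp4, Oasl2 and Ifi27 lie at the upper right, and Gbp2, Gbp3, Ifit1 and Ifit3 have ranges of 2.90 to 3.39 with smaller differences.

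Upstream of the members, the ligand genes gave little signal. Of 18 listed interferon genes 11 had a named probe and 4 were tested; 0 rose or fell, and the median difference was 0.04. Ifnb1, the type I interferon that most cells make first, was not above background on any array, and neither were Ifng, Ifna4, Ifna5, Ifne and Ifnk. The probes of Ifna2, Ifna9, Ifna12 and Ifna13, which belong to a family of near-identical genes, differed by -0.54 to 0.36. The receptor and kinase genes were all present: all 9 of that list were above background on all 6 arrays, and the median difference was 0.33. With or without the block 0 rose or fell, and 2 had an unadjusted p under 0.05 without it, against 14.9% of all genes. Ifnar1 differed by 0.08 ± 0.21, Jak1 by 0.37 ± 0.19 and Tyk2 by 0.34 ± 0.33. Ifnar2 differed by 0.17 ± 0.22 by its brighter probe and by 0.49 ± 0.20 by the other, whose groups did not overlap. The chains of the interferon lambda receptor, named after their values were seen, were higher in TSA on all 3 slides with groups that did not overlap. Ifnlr1 had -0.34, -0.70 and -0.56 on TSA arrays, against -2.12, -1.65 and -1.55 on DMSO arrays, and differed by 1.24 ± 0.24 (2.36-fold, adjusted p = 0.0788, and 0.0762 with the block). Il10rb differed by 1.07 ± 0.43 (2.09-fold, adjusted p = 0.396, and 0.0703 with the block).

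Of the 12 tested upstream sensors and adaptors, 8 were higher in TSA on average, against 58.1% of all genes, and the median difference was 0.25. None rose or fell without a block, and with it 2 rose, against 3.19% of all genes. These were Irf5 (1.79 ± 0.34, adjusted p = 0.0787, and 0.0425 with the block) and Irf8 (1.60 ± 0.32, adjusted p = 0.0829, and 0.0478 with the block), both transcription factors known from blood cells. Mavs, the adaptor of MDA5 and RIG-I, differed by 0.01 ± 0.29. Irf3, the factor that switches on Ifnb1, differed by 0.24 ± 0.23 by its brighter probe and by -0.21 ± 0.25 by the other. Of 7 tested inhibitors, 0 rose or fell. A higher mean in TSA was found for 4 and a lower one for 3, down to -0.45, with a median difference of 0.06. The highest was Socs1, a feedback inhibitor of the kinases, with 1.45 ± 0.36 (adjusted p = 0.150, and 0.0520 with the block). The other interferon-stimulated genes, a list of 32 outside the members, had 22 tested genes. All of these averaged higher in TSA (58.1% of all genes did), with a median difference of 1.01. None rose or fell without a block. With it 2 rose, against 3.19% of all genes: Trim30a (2.82 ± 1.13, adjusted p = 0.393, and 0.0424 with the block) and Cmpk2 (1.98 ± 0.50, adjusted p = 0.153, and 0.0407 with the block). Trim30a is known to dampen inflammatory signalling, and Cmpk2 is a nucleotide kinase beside Rsad2. Rigi had no named probe.

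Markers of cell types were read beside the members, and their part in the results was not tested. Of 7 tested neural progenitor markers, 3 were higher in TSA on all 3 slides, against 32.6% of all genes. The other 4 were lower on all 3, against 21.4%. Their median difference was -0.38, and with the block 1 rose and 0 fell, against 3.19% and 0.145% of all genes. The 10 stem cell and epiblast markers had a median difference of 0.12, with 6 higher and 4 lower in mean. Of 7 macrophage and microglia markers with a probe, 2 were above background on all arrays and Adgre1 and Fcgr1 on none, and the summed log2 level was -43.2, -36.5 and -42.9 on TSA arrays, against -45.4, -40.8 and -42.6 on DMSO arrays. Of 6 lymphocyte markers 3 were above background on all arrays and Cd3g on none. The sums were -28.6, -23.7 and -30.2 on TSA arrays, against -32.5, -28.3 and -32.7 on DMSO arrays. Of the 5 tested, 1 rose, against 1.36% of all genes: Cd8a (2.55 ± 0.40, adjusted p = 0.0483). The median of the 5 differences was 0.17 and the lowest was -0.17. Of 8 fibroblast markers, which would mark feeder cells or mesenchyme, 6 were above background on all arrays and Lum on none. Their sum was -19.5, -15.9 and -13.8 on TSA arrays, against -27.2, -22.8 and -14.1 on DMSO arrays, lowest on slide 1 in both treatments, as the macrophage and endothelial sums were. Of the 7 tested fibroblast markers, 5 had a higher mean in TSA, against 58.1% of all genes. The other 2 were lower on all 3 slides, against 21.4% of all genes. Differences ran from -0.91 to 2.73. Col1a1 had the highest, 2.73 ± 0.96 (adjusted p = 0.315), and Col1a2 differed by 1.77 ± 0.33 (adjusted p = 0.0742, and 0.0474 with the block). Of 5 endothelial markers 3 were above background on all arrays and Cdh5 on none, with sums of -21.3, -18.4 and -20.5 on TSA arrays, against -21.6, -19.7 and -20.1 on DMSO arrays.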

How the data were processed

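Total RNA of 6 samples was labelled with Cy3 and hybridised to Agilent arrays. Per the file headers, the deposited intensity values came from Agilent Feature Extraction 10.7.3.1, with array annotation on mm9. The authors' deposited log2 table served as an alternative; its normalization is not stated in the sources used here, and its column medians are 6.31 to 6.34. Its columns correlate at 0.982 to 0.992 with log2 of the processed signal.

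Control spots and 57 to 84 outlier spots per array were left out. Values were log2(processed signal) less the array's 75th percentile, averaged over spots of a probe. Of 41174 probes, 27484 had 1 gene name through RefSeq identifiers or symbols and 13690 had none. The 28158 probes (68.4%) well above background on at least 3 arrays were tested with limma 3.58.1 in R 4.3.3 (lmFit and eBayes, two-sided, Benjamini-Hochberg over all tested probes, threshold 0.05), and the brightest tested probe stands for a gene. Tables were read with Python 3.11.15, and the fits were checked on simulated data. Processed signal is a brightness, so the precision is limited by the 3 arrays per group.

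The study's design names independent experiments, and p-values measure the spread between these samples. Same-numbered samples share a slide. Their deviations from the group means had correlations of 0.484, 0.614 and 0.585, while pairs from different slides gave -0.568 to 0.0916. The numbers therefore pair the samples, and blocked values stand beside the results they change. Members, roles, lists and tests were chosen with earlier results of these data known. The rule for named members takes those past the threshold with or without the block, the 3 brightest of each role above background on all arrays, up to 6 past the slide term, and those whose tested probes differ by over 1. Others are named after their values were seen. Alternatives were the background correction, the normalization, the filter, the moderation, the slide as a block, and leaving out each array or slide. Besides the pathway genes given, 1 further gene outside the members is not reported here.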

Additional observations from a re-analysis of the deposited data

How the results depend on the processing

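Of 30 alternatives, 21 were planned and 9 were added after seeing the data (the block combined with other scalings or with a slide left out, and leaving out slide 1 or 3). Members that fell stayed at 0 under every one that gives a test. The number of all genes that rose, 197, was 44 with normexp, 112 with quantile normalization, 102 with median centring, 114 in the authors' deposited table and 40 with no filter. It was 0 to 431 with each array left out and 0 without slide 1, 2 or 3. Genes that fell, 8, were 5 with quantile normalization, 5 with median centring, 0 with no filter, 0 to 29 with each array left out and 0 without slide 1, 2 or 3. With the slide as a replicate block 464 rose and 21 fell; with the block, 0 and 0 did with normexp or quantile normalization, 559 and 57 with median centring, and 14 fell in the authors' table. With the block and slide 1, 2 or 3 left out, 663, 1587 and 639 rose and 204, 368 and 76 fell. Members that rose, 1, were 0 with quantile normalization, median centring, the authors' table, the filter on all 6 arrays, no filter, or trend and robust moderation; 0 without slide 1, 2 or 3; and 0 to 2 with each array left out. With the replicate block they were 9, and with it 0 with normexp or quantile normalization, 13 with median centring, 3 in the authors' table, and 18, 19 and 16 with slide 1, 2 or 3 left out. The member median, 1.18, was 0.62 with normexp, with or without the block, 1.64 on slide 2 alone and 0.86 to 1.71 with each array left out. Members past the slide term, 0, were 1 with median centring, 4 to 30 with each array left out, and 4, 9 and 16 without slide 1, 2 or 3; such fits on 4 or 5 arrays have 1 residual degree of freedom with a slide term. The share of all tested genes past the slide term in these fits was not counted, so nothing is read from these member counts. Signs turned in 3 named members, none of them called. Adar was -0.0785 with median centring, -0.0018 without slide 2, -0.0355 without slide 3 and -0.0256 (without DMSO replicate 3) to 0.0779 with each array left out. Ifitm2 was -0.0025 with median centring, -0.19 without slide 2 and -0.17 (without TSA replicate 2) to 0.24 with each array left out. Oas3 was -0.0478 with normexp, -0.0602 with quantile normalization, -0.0029 with median centring, -0.0462 in the authors' table, -0.15 without slide 2 and -0.0949 (without DMSO replicate 2) to 0.40 with each array left out. The block gave the same differences for these 3. The causes were not tested. Normexp was run on median spot signals. For the 6 members not above background on DMSO 1, the level on that array is limited by the background.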
